A study of Mus musculus with 24 samples.

Results

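Replication-dependent histone genes supply the histones that package new DNA. They were chosen as all gene symbols of the count table that start with Hist1h, Hist2h, Hist3h or Hist4h. The rule found 68 of 24421 genes, of which 6 encode linker histone H1, 18 H2A, 19 H2B, 12 H3 and 13 H4. Hist1h2bq and Hist1h2br, and Hist2h3c1 and Hist2h3c2, had equal counts in 24 of 24 libraries, and Hist2h2aa1 and Hist2h2aa2 in 22 of 24, so each of these 3 pairs counts once and 65 genes or gene pairs remain (6 H1, 17 H2A, 18 H2B, 11 H3, 13 H4). Below, the first name of a pair stands for both copies, except that Hist2h3c stands for Hist2h3c1 and Hist2h3c2. Their RNA was measured in B cells sorted from the bone marrow of 8 mice. All 8 mice carried 1 copy of Mb1-Cre (MB1 Cre +/WT), a recombinase expressed in cells of the B lineage. In 4 mice both Vhl alleles were floxed (flox/flox), and in the other 4 mice only 1 was (flox/WT), so the recombinase was also present in the controls. Each mouse gave 3 libraries, 1 from pro-B and pre-B cells sorted together (proBpreB in the labels), 1 from immature B cells and 1 from mature B cells. The 6 groups therefore held 4 libraries each. The sources used here do not give the surface markers of the sort gates or the age of the mice. Mb1-Cre is active in the B lineage, so cells of other lineages in a sort would keep their Vhl alleles.

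Each nucleosome wraps DNA around core histones H2A, H2B, H3 and H4, and linker histone H1 binds where the DNA enters and leaves it. Cells copying their DNA need large amounts of these proteins at once, and meet the need from many near-identical, intronless genes that lie in clusters and are transcribed mainly in S phase. Their mRNAs end in a conserved stem-loop in place of a poly(A) tail. The stem-loop-binding protein SLBP holds this structure during 3' end cutting, export and translation, and the mRNAs are destroyed when replication stops. Pro-B and pre-B populations hold many dividing cells, whereas most mature B cells in the bone marrow rest. Vhl encodes the subunit of a ubiquitin ligase that marks hypoxia-inducible factors for destruction.

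Of the 68 genes, 54 lay on chromosome 13 between 21715763 and 23934851 (GRCm38, GENCODE M21 annotation), 10 on chromosome 3 between 96219865 and 96270132, 3 on chromosome 11 and 1, Hist4h4, on chromosome 6. All 6 H1 genes lay on chromosome 13. A 16-base stem-loop was found in the annotated transcripts of 44 of the 68 genes. Where it was not found, the annotated transcript may end before it or hold a variant that the search pattern misses. In 26 of the 44 the letters were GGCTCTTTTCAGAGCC, in 7 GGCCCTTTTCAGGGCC, in 6 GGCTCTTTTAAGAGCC, in 2 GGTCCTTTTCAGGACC, in 2 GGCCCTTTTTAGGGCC and in 1 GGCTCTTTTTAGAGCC. All keep the paired stem and the run of T in the loop. The examples below, from GENCODE M21 transcripts on chromosome 13, show the stem-loop and the bases beside it, for genes whose values are described further on. Their annotated transcripts run on past the stem-loop, by 3 bases in Hist1h4m, 752 in Hist1h3d and 770 in Hist1h4d, so the stem-loop is not always near the annotated end. Capitals mark the stem-loop, and bases are given 5' to 3' on the transcript strand.
Hist1h2ao: aaaaaGGCTCTTTTCAGAGCCatccacagt
Hist1h2ae: acaaaGGCTCTTTTCAGAGCCattcactta
Hist1h3d: ccaaaGGCTCTTTTCAGAGCCacccccgtt
Hist1h3e: aaaacGGCTCTTTTAAGAGCCacctccatt
Hist1h4d: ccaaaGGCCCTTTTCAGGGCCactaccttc
Hist1h4m: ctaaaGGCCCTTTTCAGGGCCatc
Hist1h4j: ctaaaGGTCCTTTTCAGGACCaccacatct

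Promoters of 300 bases, 250 before and 50 after the RefSeq start, were available for 62 of the 68 genes in the RefSeq table of GRCm38.p6. The letters CCAAT, on either strand, occurred in 53 of 62 (85.5%) against 37.4% of all 32851 promoters of the same length. By class, CCAAT was in 3 of 12 H4 promoters and in every promoter of H1 (6), H2A (18), H2B (16) and H3 (10). TATAAA, on either strand, occurred in 35 of 62 (56.5%), against 13.6% of all promoters. The octamer ATTTGCAT, on either strand, which binds Oct transcription factors, was in 7 of 18 H2A and 6 of 16 H2B promoters and in 0 of the others, against 1.74% of all promoters. The letters AAACACA, on either strand and known from H1 promoters, were in 5 of 6 H1 promoters and in 7.18% of all promoters. Each motif was searched on its own, so matches may overlap. The 3 promoters below show 3 of these arrangements, an H1 promoter with AAACACA, an H2A promoter with the octamer and an H4 promoter without CCAAT. Capitals mark the matches, and all 3 are read 5' to 3' on the minus strand of chromosome 13 (GRCm38.p6). They lie at chr13:21780576-21780875 for Hist1h1b, chr13:23571171-23571470 for Hist1h2ae and chr13:21832148-21832447 for Hist1h4n.
Hist1h1b: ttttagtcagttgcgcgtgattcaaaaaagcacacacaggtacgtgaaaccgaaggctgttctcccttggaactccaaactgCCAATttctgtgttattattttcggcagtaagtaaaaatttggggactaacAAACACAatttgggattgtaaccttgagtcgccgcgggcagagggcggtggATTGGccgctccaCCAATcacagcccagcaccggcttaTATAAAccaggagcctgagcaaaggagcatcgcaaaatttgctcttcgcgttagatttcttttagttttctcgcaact
Hist1h2ae: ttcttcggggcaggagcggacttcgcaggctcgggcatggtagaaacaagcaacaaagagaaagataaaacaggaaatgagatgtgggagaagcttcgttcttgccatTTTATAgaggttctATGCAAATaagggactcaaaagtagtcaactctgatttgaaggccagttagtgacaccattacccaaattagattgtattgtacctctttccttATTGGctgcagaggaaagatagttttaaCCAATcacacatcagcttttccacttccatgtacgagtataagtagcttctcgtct
Hist1h4n: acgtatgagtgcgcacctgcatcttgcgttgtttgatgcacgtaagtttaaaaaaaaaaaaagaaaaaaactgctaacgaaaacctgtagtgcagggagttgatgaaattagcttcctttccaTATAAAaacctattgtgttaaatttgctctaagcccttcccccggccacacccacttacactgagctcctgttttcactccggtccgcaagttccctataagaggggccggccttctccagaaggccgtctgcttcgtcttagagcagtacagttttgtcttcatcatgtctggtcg

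An H2A and an H2B gene often lay head to head, and 13 such pairs had starts 173 to 306 bases apart. Promoter windows of such partners can overlap, so the same match can count for both an H2A and an H2B promoter. Hist1h2ae and Hist1h2bg start 176 bases from each other, so the window printed for Hist1h2ae also holds the whole stretch between the starts of both genes.

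Library totals ran from 7850186 to 11863949 counts, and 3 counts corresponded to 0.231 to 0.419 CPM, CPM being counts divided by the TMM-scaled library size and given per 1e+06 counts. Vhl itself was lower in flox/flox libraries of every population, with 10.2 ± 3.37 against 25.3 ± 2.02 CPM in proBpreB, 5.58 ± 2.31 against 35.5 ± 8.88 CPM in immature and 7.60 ± 1.90 against 29.1 ± 2.81 CPM in mature cells (flox/flox against flox/WT, SD, 4 libraries each, with an exact two-sided permutation p = 0.0286 in each population, the smallest that 4 against 4 allow). Libraries of 1 group came from different mice. Markers of other cells were present in all 6 groups. Summed CPM of 13 erythroid markers was 10291 to 19040 in immature flox/flox against 2531 to 8098 in immature flox/WT libraries, with 7 of 13 called higher, and 7819 to 21184 in mature flox/flox against 3831 to 10745 in mature flox/WT libraries, with 3 of 13 called higher. Neutrophil and monocyte markers summed to 11725 to 15693 CPM in immature flox/flox against 8026 to 9480 CPM in immature flox/WT libraries, with 3 of 11 called higher. The pro-B and pre-B markers had 3 of 10 called higher in immature flox/flox libraries, where 7 of 10 mature B markers were called lower. In proBpreB flox/flox libraries 8 of 10 mature B markers were called lower. Of the B cell receptor chain genes, Cd79b averaged 926 ± 36.2 CPM in proBpreB flox/flox against 1643 ± 219 CPM in proBpreB flox/WT libraries and 2873 ± 199 CPM in mature flox/flox against 3649 ± 251 CPM in mature flox/WT libraries (SD, 4 libraries each, edgeR adjusted p = 1.17e-06 and 0.0191). Cd79a averaged 467 ± 22.5 CPM in proBpreB flox/flox against 705 ± 16.8 CPM in proBpreB flox/WT libraries (edgeR adjusted p = 0.000771) and did not pass in mature cells (0.0959). Neither gene passed in immature cells (edgeR adjusted p = 0.572 for Cd79b and 0.785 for Cd79a). Plasmacytoid dendritic cell markers summed to 1409 to 1897 CPM in proBpreB flox/flox against 1168 to 1464 CPM in proBpreB flox/WT libraries, with 0 of 6 called. None of the erythroid or neutrophil markers was at 0 in any group. The part of these cells in the histone values was not tested. In such sorted bulk samples, fewer dividing cells and less histone RNA per cell cannot be told apart.

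On average, histone RNA was most abundant in proBpreB cells and least abundant in mature cells, in both genotypes. Summed over the 65 genes, proBpreB libraries measured 10352, 8765, 6241 and 8890.2 CPM in flox/flox mice, against 9707, 12244, 14328 and 11968 CPM in flox/WT mice. Immature libraries measured 1941, 4198, 2260.4 and 3905 CPM in flox/flox, against 11053, 4281, 4907 and 8571 CPM in flox/WT mice. In mature cells the sums were 1888, 2779, 1569 and 1517 CPM in flox/flox mice, against 2299, 2536, 1677 and 1613 CPM in flox/WT mice. The genotypes did not overlap in immature cells, where every flox/flox sum was below every flox/WT sum, and they overlapped in proBpreB and mature cells. The immature flox/flox mean was 42.7% of the flox/WT mean over all 65 genes, 40.4% over H2A, 73.4% over the genes outside H2A and 93.8% over the 9 genes that share under 10% of their 50-base windows with other annotated genes, histone or not. In the last 2 sets the genotypes overlapped. These sums carry no test.

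H2A genes held most of this signal. Their mean share of the summed histone CPM was 92.9% in proBpreB flox/flox, 92.8% in proBpreB flox/WT, 87.3% in immature flox/flox, 92.4% in immature flox/WT, 87.6% in mature flox/flox and 83.0% in mature flox/WT libraries. Hist1h2ao and Hist1h2ap, H2A genes on chromosome 13, alone held mean shares of 55.2% to 63.2% over the 6 groups. Their counts differed by at most 0.693% in any library and were equal in 0 of 24, and 93.5% and 93.1% of their 50-base windows also occur in another annotated gene, so most reads of the pair may not be told apart. The sources used here do not say how the authors' counting treated reads that match several genes. Hist2h2aa2, with 100% of its windows shared, still held 29900 counts over all libraries, equal to those of Hist2h2aa1 in 22 of 24. At least there, reads that match several genes appear to have been counted for each copy. The H2A sums and shares may therefore hold some reads more than once, and calls of H2A genes may rest on the same reads. The extent was not tested. The counts of Hist1h2ai, Hist1h2ab and Hist1h2af jumped between libraries of a group, as with 22.5 and 473 CPM for Hist1h2ab in proBpreB flox/flox libraries, and they share 90.1%, 58.0% and 79.7% of their windows with other annotated genes. The cause of these jumps was not tested.

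Per kilobase of exon, mean CPM over all libraries was 3681 for Hist1h2ao, 3661 for Hist1h2ap, 674 for Hist1h2ad and 608 for Hist1h2ag. The highest level per kilobase within each other class was 78.4 for Hist1h4d in H4, 32.6 for Hist1h1b in H1, 25.5 for Hist1h2bc in H2B and 13.9 for Hist1h3i in H3. Within the 11 head-to-head pairs that were tested, the H2A gene stood above its H2B partner per kilobase in 11, by 1.16 times for Hist1h2ac and Hist1h2bc up to 501 times for Hist1h2ap and Hist1h2br. In CPM per gene, the leading members were Hist1h1e, Hist1h1c and Hist1h1b in H1, Hist1h2ao, Hist1h2ap and Hist1h2ad in H2A, and Hist1h2bc, Hist2h2be and Hist1h2bq in H2B. In H3 they were Hist2h3c, Hist1h3d and Hist1h3i, and in H4 Hist1h4d, Hist1h4n and Hist1h4c. The testis genes Hist1h1t, Hist1h2ba and Hist1h2aa, and the pseudogene Hist3h2bb-ps, did not pass the filter on low counts. The other 61 of 65 were tested.

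**Figure D1:**
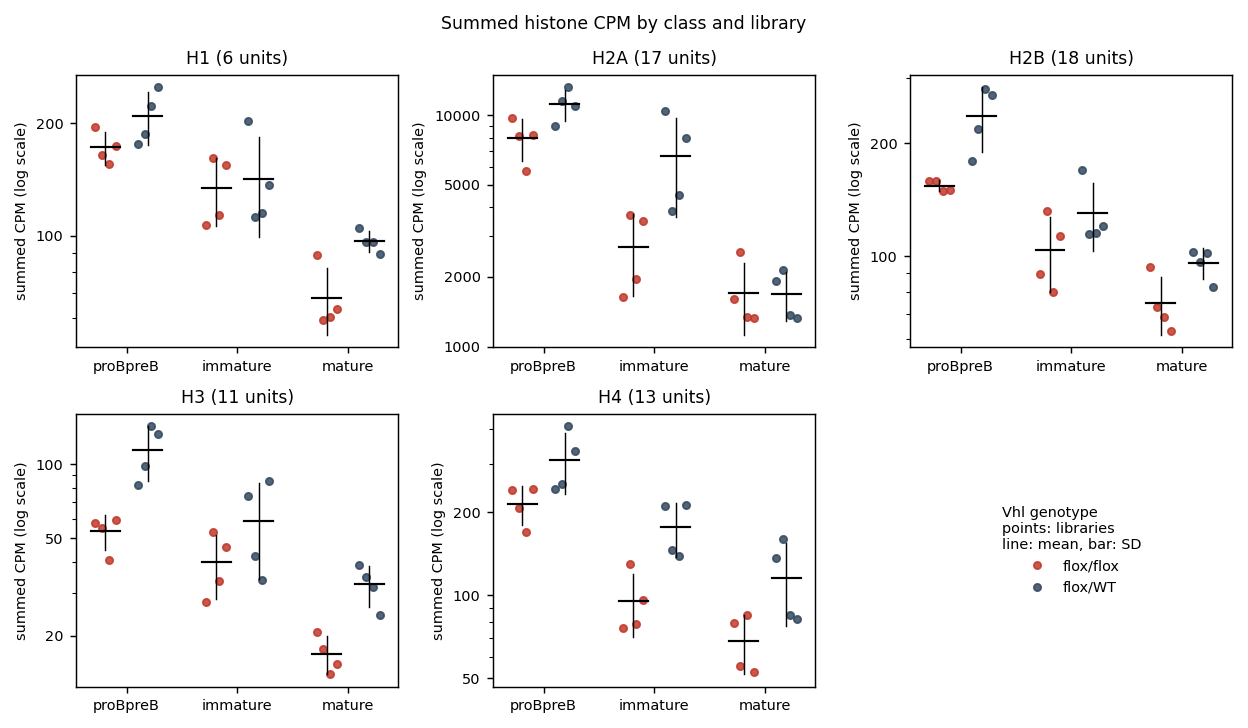
Summed CPM of each histone class (vertical axis, log scale) in the 3 populations, with flox/flox libraries in red to the left of flox/WT libraries in blue. Points are libraries, lines are means and bars are SD (n = 4). H3 sums of the genotypes lie apart in proBpreB cells (40.5 to 59.3 against 82.3 to 142.5 CPM) and in mature cells (13.9 to 20.8 against 24.3 to 39.0 CPM).

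Class by class, H2A sums averaged 7967 ± 1649 CPM in proBpreB flox/flox and 11192 ± 1747 CPM in proBpreB flox/WT libraries, 2703 ± 1057 CPM in immature flox/flox and 6696 ± 3069 CPM in immature flox/WT libraries, and 1711 ± 589.7 CPM in mature flox/flox and 1691 ± 406 CPM in mature flox/WT libraries (SD, n = 4 each). The H2A groups did not overlap in immature cells. H3 averaged 53.2 ± 8.61 CPM in proBpreB flox/flox and 114 ± 28.5 CPM in proBpreB flox/WT libraries, 39.9 ± 11.6 CPM in immature flox/flox and 58.9 ± 24.8 CPM in immature flox/WT libraries, and 17.0 ± 2.99 CPM in mature flox/flox and 32.4 ± 6.21 CPM in mature flox/WT libraries. For H3 the groups stood apart in proBpreB and mature cells and overlapped in immature cells. H4 averaged 215 ± 34.5 CPM in flox/flox against 310.1 ± 77.7 CPM in flox/WT proBpreB libraries, 95.1 ± 24.6 CPM in flox/flox against 177 ± 39.8 CPM in flox/WT immature libraries, and 68.2 ± 16.5 CPM in flox/flox against 116 ± 38.8 CPM in flox/WT mature libraries. H1 averaged 172 ± 17.5 CPM in flox/flox against 209 ± 33.96 CPM in flox/WT proBpreB libraries, 134 ± 27.8 CPM in flox/flox against 142 ± 42.4 CPM in flox/WT immature libraries, and 68.0 ± 13.9 CPM in flox/flox against 96.7 ± 6.41 CPM in flox/WT mature libraries. H2B averaged 154 ± 5.08 CPM in flox/flox against 237 ± 46.6 CPM in flox/WT proBpreB libraries, 104 ± 23.6 CPM in flox/flox against 130.1 ± 26.6 CPM in flox/WT immature libraries, and 74.7 ± 13.2 CPM in flox/flox against 95.8 ± 9.21 CPM in flox/WT mature libraries. Without H2A, the other 48 genes summed to 653, 586, 514 and 625 CPM in proBpreB flox/flox and 681, 757, 1054 and 986 CPM in proBpreB flox/WT libraries, with no overlap. The same sum overlapped in immature cells, at 299.6 to 476 CPM in flox/flox against 404 to 657 CPM in flox/WT libraries, and in mature cells, at 195 to 282 CPM in flox/flox against 279 to 388 CPM in flox/WT libraries.

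In proBpreB cells, 10 of the 61 tested histone genes fell and 0 rose in flox/flox mice, and all 61 estimates were below 0. Among all 12850 genes tested, 2.75% were called lower and 3.38% higher. The median log2 change was -0.73 over the histone genes and 0.00 over all genes. In 18 histone genes the groups did not overlap, with flox/flox lower, and likewise in 7.60% of all genes. H3 genes made up 5 of the 10 calls, H2B 3, H4 2, and H1 and H2A 0.

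Hist2h3c, on chromosome 3, measured 14.0, 14.8, 8.14 and 10.8 CPM in proBpreB flox/flox libraries, against 18.9, 23.2, 27.5 and 27.3 CPM in proBpreB flox/WT libraries. The groups did not overlap (log2 change -1.02, SE 0.24, edgeR adjusted p = 0.00574). Hist1h3d measured 7.87, 6.90, 6.02 and 8.34 CPM in proBpreB flox/flox libraries, against 16.6, 11.0, 19.6 and 19.5 CPM in proBpreB flox/WT libraries (log2 change -1.19, SE 0.30, edgeR adjusted p = 0.0117). Both encode the core histone H3, and both calls held in every alternative. The other H3 calls were Hist1h3a at -1.43, Hist1h3c at -1.42 and Hist1h3e at -1.03 on the log2 scale (edgeR adjusted p = 0.0339, 0.0288 and 0.0405). Hist1h3i, the most abundant H3 gene without a call, had a log2 change of -0.83 (adjusted p = 0.125).

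In H2B, Hist1h2bh measured 2.81, 1.33, 3.15 and 1.83 CPM in proBpreB flox/flox libraries, against 7.54, 13.9, 15.8 and 5.66 CPM in proBpreB flox/WT libraries. Every flox/flox value lay below the lowest flox/WT value (log2 change -2.23, SE 0.42, edgeR adjusted p = 0.000746), and the call held in every alternative that tested the gene. Hist1h2bf and Hist1h2be also fell, by 0.99 and 0.89 on the log2 scale (edgeR adjusted p = 0.0297 and 0.0343). Hist1h2be overlaps Hist1h1e on the same strand, so its counts may hold reads of both. Hist1h2bc, the most abundant H2B gene, was at -0.48 (adjusted p = 0.141). Of the H4 genes, Hist1h4n fell by 0.94 and Hist1h4m by 0.90 (edgeR adjusted p = 0.0176 and 0.0155), while the most abundant, Hist1h4d, was at -0.34 (adjusted p = 0.45). The leading genes of the classes without a call were Hist1h1e at -0.26 (adjusted p = 0.453) and Hist1h2ao at -0.43 (adjusted p = 0.533).

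Of the 10 calls in proBpreB cells, 7 were lost in at least 1 of 14 alternatives, that is all but Hist1h2bh, Hist1h3d and Hist2h3c. Hist1h3a lost its call in 8, Hist1h3c and Hist1h3e in 7 each, Hist1h2be and Hist1h2bf in 6 each and Hist1h4m and Hist1h4n in 4 each. Hist1h2bh, Hist1h3a, Hist1h3c and Hist1h3e were tested in 13 of the 14, since the filter of 10 CPM removed them. Leaving out 1 library lost 7 without proBpreB flox/flox replicate 1 (0.052 to 0.0963), 5 without proBpreB flox/flox replicate 3 (0.0631 to 0.124), 7 without proBpreB flox/WT replicate 3 (0.0602 to 0.0879), 7 without proBpreB flox/WT replicate 4 (0.0715 to 0.167), 5 without proBpreB flox/WT replicate 2 (0.0521 to 0.0814), 5 without proBpreB flox/flox replicate 2 (0.0736 to 0.0916) and 5 without proBpreB flox/flox replicate 4 (0.065 to 0.15), where the brackets give the lowest and highest adjusted p of the lost calls. In this comparison flox/WT replicates 3 and 4 had the higher non-H2A histone sums, 1054 and 986 CPM against 681 and 757 CPM in replicates 1 and 2. The same 2 libraries had lower sums of 31 DNA replication genes (5576 and 4904 against 7026 and 6881 CPM) and of 23 mitosis genes (5081 and 4749 against 6468 and 6705 CPM). Their part in the result was not tested.

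**Figure D2:**
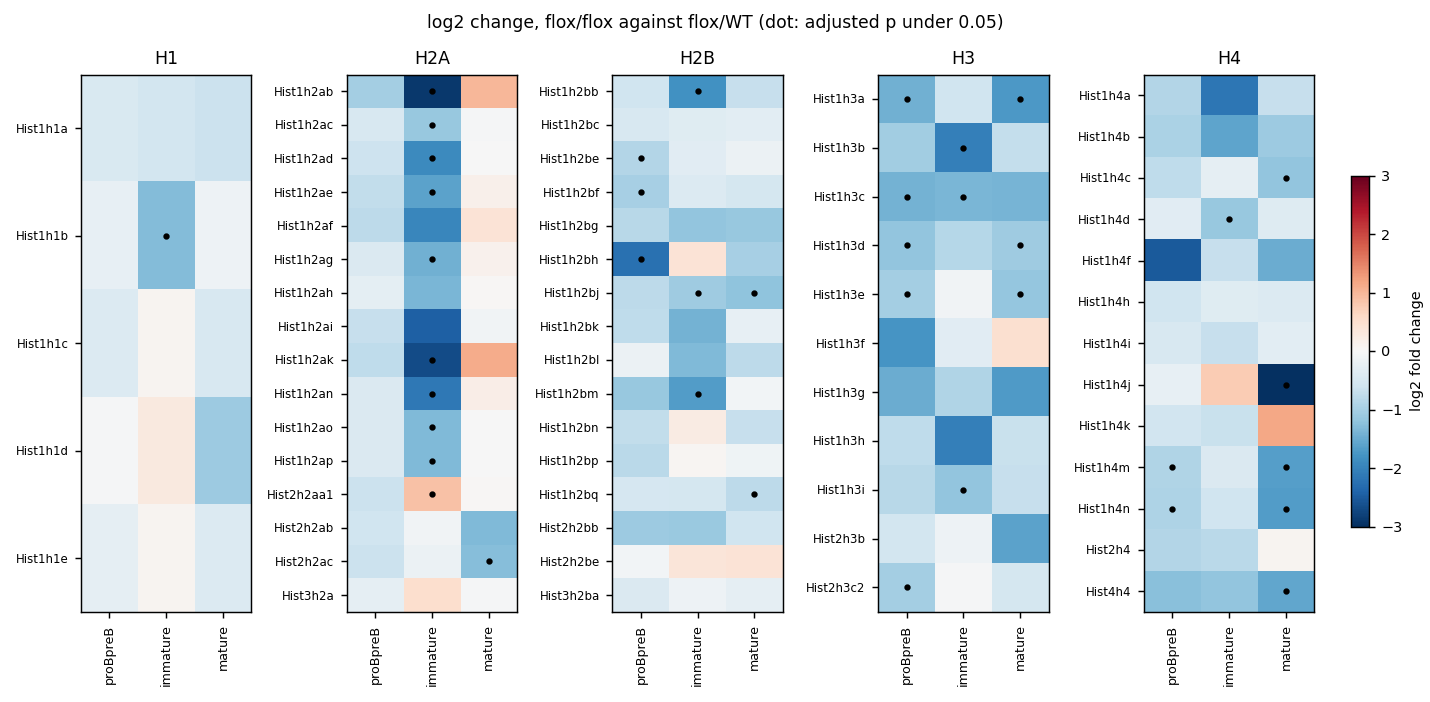
Log2 fold change, flox/flox against flox/WT, of the 61 tested histone genes in the 3 populations, a row per gene and a panel per class. Colour gives the size and sign of the change, and dots show genes past an edgeR adjusted p of 0.05. In proBpreB cells all 61 estimates are below 0, and 51 and 49 are in immature and mature cells.

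In immature cells, 17 histone genes fell and 1 rose in flox/flox mice, against 10.5% of all genes called lower and 10.2% called higher. The median log2 change was -0.82, and 51 of 61 estimates were below 0. In 15 genes the flox/flox values all lay below the flox/WT values, as in 11.5% of all genes. Here H2A led, with 9 of its 16 tested genes lower and 1 higher, followed by H2B and H3 with 3 each, and H1 and H4 with 1 each.

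Hist1h1b measured 10.1, 15.1, 8.58 and 10.0 CPM in immature flox/flox libraries, against 36.9, 23.6, 22.6 and 25.6 CPM in immature flox/WT libraries. This linker histone gene, at chromosome 13, 21779883 to 21780625 on the minus strand, shares 0% of its 50-base windows with other annotated genes. The groups did not overlap (log2 change -1.31, SE 0.24, edgeR adjusted p = 0.000181), and the call held in every alternative. The other tested H1 genes did not pass, and Hist1h1e, the most abundant, was at 0.09 (adjusted p = 0.785).

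Of the H2A genes, Hist1h2ae measured 19.5, 44.6, 23.5 and 31.1 CPM in immature flox/flox libraries, against 157, 55.6, 49.8 and 99.2 CPM in immature flox/WT libraries (log2 change -1.61, SE 0.30, edgeR adjusted p = 0.000413). Hist1h2ad measured 88.3, 238, 87.7 and 122 CPM in immature flox/flox libraries, against 790.1, 333, 275 and 629.6 CPM in immature flox/WT libraries (log2 change -1.92, SE 0.41, edgeR adjusted p = 0.00182). Hist1h2ak measured 3.20, 3.07, 5.01 and 2.51 CPM in immature flox/flox libraries, against 33.97, 5.59, 24.2 and 25.7 CPM in immature flox/WT libraries (log2 change -2.69, SE 0.59, edgeR adjusted p = 0.00241). In all 3 the highest flox/flox library stayed below the lowest flox/WT library, and these calls and that of Hist1h2ac (-1.14, adjusted p = 0.0024) held in every alternative. The abundant pair was variable: Hist1h2ao measured 489.9, 1263, 641 and 1199 CPM in immature flox/flox libraries, against 3449.9, 1295, 1578 and 2609 CPM in immature flox/WT libraries. The groups stood apart by a narrow gap, since flox/flox replicate 2 reached 1263 and flox/WT replicate 2 measured 1295 CPM (log2 change -1.31, SE 0.33, edgeR adjusted p = 0.00714). Fitted on the immature libraries alone, the adjusted p of Hist1h2ao was 0.0775 and that of Hist1h2ap 0.0774, and Hist1h2ag was lost likewise (0.0646). The remaining falls were Hist1h2ab at -2.88, Hist1h2an at -2.15 and Hist1h2ag at -1.44 (edgeR adjusted p = 0.0325, 0.0185 and 0.0101). Hist1h2ai, at -2.45, did not pass (adjusted p = 0.0632).

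Hist2h2aa1, an H2A gene of the chromosome 3 cluster, went the other way. Hist2h2aa1 measured 176, 328, 186 and 266 CPM in immature flox/flox libraries, against 184, 97.3, 95.1 and 139.9 CPM in immature flox/WT libraries. The groups overlapped, with flox/WT replicate 1 above the lowest flox/flox library, and the estimate of 0.89 (SE 0.29, edgeR adjusted p = 0.0297) lost its call in 7 of 14 alternatives. These were flox/WT replicate 2, 3 or 4 left out (0.0959, 0.0951 and 0.0511), flox/flox replicate 2 or 4 left out (0.113 and 0.0686), no filter on low counts (0.064) and the replicate number as a block (0.0704).

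In the other classes, Hist1h4d measured 37.0, 73.9, 42.2 and 51.4 CPM in immature flox/flox libraries, against 132, 104, 92.4 and 119 CPM in immature flox/WT libraries, with no overlap (log2 change -1.13, SE 0.23, edgeR adjusted p = 0.000741). It was the 1 H4 gene called, its call held in every alternative, and Hist1h4n at -0.59 did not pass (adjusted p = 0.12). The H2B calls were Hist1h2bb at -1.82, Hist1h2bm at -1.68 and Hist1h2bj at -1.06 (edgeR adjusted p = 0.0169, 0.0263 and 0.0365), while Hist1h2bc was at -0.37 (adjusted p = 0.197). Those of H3 were Hist1h3b at -2.05, Hist1h3c at -1.37 and Hist1h3i at -1.18 (edgeR adjusted p = 0.0194, 0.0264 and 0.0151), while Hist2h3c was at -0.03 (adjusted p = 0.952). Of the 14 alternatives, 5 lost the call of Hist1h2bj, 3 each those of Hist1h2bm, Hist1h3c and Hist1h3i, and 2 each those of Hist1h2bb and Hist1h3b. Leaving out 1 immature library lost 5 without flox/flox replicate 1 (0.0501 to 0.124), 4 without flox/flox replicate 3 (0.064 to 0.109), 8 without flox/WT replicate 4 (0.0511 to 0.283), 6 without flox/flox replicate 2 (0.0562 to 0.113), 2 without flox/WT replicate 1 (0.0587 to 0.0979), 3 without flox/flox replicate 4 (0.0686 to 0.0722), 1 without flox/WT replicate 2 (0.0959) and 1 without flox/WT replicate 3 (0.0951), with the adjusted p of the lost calls in brackets.

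**Figure D3:**
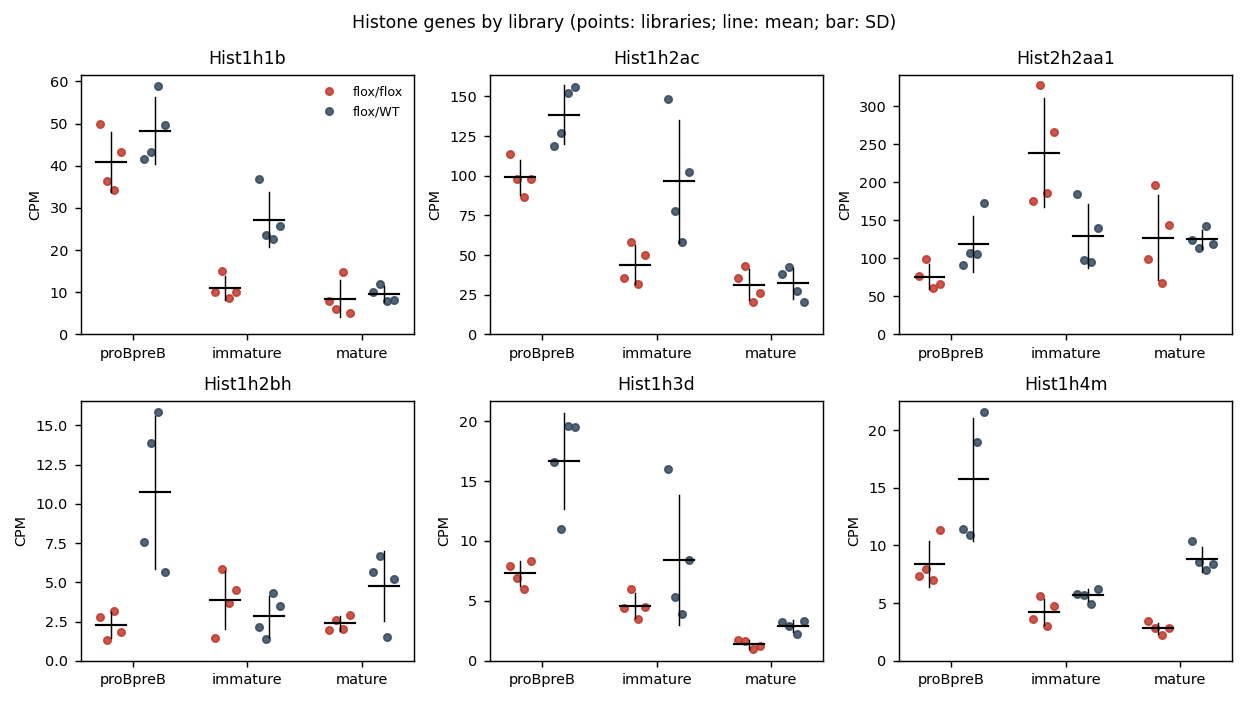
CPM per library (vertical axis, linear, a panel per gene) of Hist1h1b, Hist1h2ac, Hist2h2aa1, Hist1h2bh, Hist1h3d and Hist1h4m in the 3 populations, flox/flox in red to the left of flox/WT in dark blue, with means (lines) and SD (bars) (n = 4). Hist1h1b lies between 8.58 and 15.1 CPM in immature flox/flox libraries, below all immature flox/WT libraries (22.6 to 36.9 CPM).

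In mature cells, 11 histone genes fell and 0 rose in flox/flox mice, against 6.62% of all genes called lower and 9.69% called higher. The median log2 change was -0.52, with 49 of 61 estimates below 0. The groups did not overlap, with flox/flox lower, in 11 histone genes and in 7.26% of all genes. H4 had 5 of the calls, H3 3, H2B 2, H2A 1 and H1 0. The H2A median was 0.01, against -1.08 in each of H3 and H4.

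Hist1h4m measured 3.41, 2.80, 2.22 and 2.81 CPM in mature flox/flox libraries, against 10.4, 8.55, 7.84 and 8.38 CPM in mature flox/WT libraries (log2 change -1.64, SE 0.26, edgeR adjusted p = 3.34e-05). Hist1h4n measured 5.61, 2.91, 4.12 and 5.26 CPM in mature flox/flox libraries, against 17.2, 14.7, 10.5 and 15.0 CPM in mature flox/WT libraries (log2 change -1.68, SE 0.27, edgeR adjusted p = 5.42e-05). Hist1h4c measured 8.59, 8.39, 8.77 and 5.75 CPM in mature flox/flox libraries, against 24.2, 21.6, 12.8 and 12.7 CPM in mature flox/WT libraries (log2 change -1.17, SE 0.26, edgeR adjusted p = 0.00212). In these 3 H4 genes the groups did not overlap, and the calls held in every alternative. Hist1h4m and Hist1h4n share 89.8% and 85.6% of their 50-base windows with other annotated genes, so reads of these copies may be exchanged, whereas for Hist1h4c the share was 19.6%. The estimate of Hist1h4j, -3.44, rested on few reads: it measured 0, 0.323, 0.317 and 0.367 CPM in flox/flox, against 6.51, 4.65, 0.249 and 0.0952 CPM in flox/WT libraries, and the groups overlapped (edgeR adjusted p = 0.0392). Hist4h4, on chromosome 6, was at -1.56 (adjusted p = 0.0164). Hist1h4d, the most abundant H4 gene, was at -0.39 (adjusted p = 0.273).

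For H3 in mature cells, Hist1h3a measured 1.87, 0.538, 0.845 and 1.10 CPM in mature flox/flox libraries, against 4.34, 3.65, 3.86 and 2.67 CPM in mature flox/WT libraries, with no overlap (log2 change -1.72, SE 0.48, edgeR adjusted p = 0.0134). Hist1h3e and Hist1h3d were at -1.17 and -1.08 (edgeR adjusted p = 0.0165 and 0.0477), the call of Hist1h3d being lost in 11 of 14 alternatives, among them RLE size factors (adjusted p = 0.0507) and no filter (0.0599), and Hist2h3c at -0.53 did not pass (adjusted p = 0.162). In H2B, Hist1h2bq measured 7.71, 7.21, 5.601 and 5.26 CPM in mature flox/flox libraries, against 12.2, 10.4, 11.7 and 10.6 CPM in mature flox/WT libraries (log2 change -0.80, SE 0.22, edgeR adjusted p = 0.0106). The 4 flox/flox values were all lower, and the calls of Hist1h2bq and Hist1h3a held in every alternative that tested the gene. Hist1h2bj was at -1.20 (adjusted p = 0.0375) and Hist1h2bc at -0.31 (adjusted p = 0.312). The 1 H2A call was Hist2h2ac at -1.27 (adjusted p = 0.0392), while Hist1h2ao was at -0.01 (adjusted p = 0.994). Of the 14 alternatives, 8 lost the call of Hist2h2ac, 7 that of Hist1h2bj, 7 that of Hist1h4j, 4 that of Hist4h4 and 1 that of Hist1h3e. Of H1, Hist1h1e was at -0.42 (adjusted p = 0.114). Leaving out 1 mature library lost 5 without flox/flox replicate 1 (0.0545 to 0.104), 5 without flox/WT replicate 1 (0.0531 to 0.132), 3 without flox/WT replicate 2 (0.0721 to 0.115), 3 without flox/flox replicate 2 (0.0572 to 0.0983), 4 without flox/flox replicate 3 (0.0514 to 0.14), 4 without flox/flox replicate 4 (0.0662 to 0.0926), 2 without flox/WT replicate 3 (0.0775 to 0.125) and 2 without flox/WT replicate 4 (0.0693 to 0.112), with the adjusted p of the lost calls in brackets.

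Of the tested genes, 41 of 61 had estimates below 0 in all 3 genotype comparisons, 18 in 2 and 2 in 1. No gene was called lower in all 3. Called lower in 2 were Hist1h3a, Hist1h3c, Hist1h3d, Hist1h3e, Hist1h4m, Hist1h4n and Hist1h2bj. Hist4h4 was followed across populations after its values were seen. Hist4h4, which shares 7.07% of its windows with other annotated genes, measured 1.59, 1.33, 1.85 and 0.825 CPM in flox/flox against 2.21, 3.31, 3.96 and 3.95 CPM in flox/WT proBpreB libraries. In immature cells it measured 1.07, 1.40, 1.07 and 1.51 CPM in flox/flox against 5.30, 2.03, 2.10 and 2.22 CPM in flox/WT libraries, and in mature cells 0.661, 0.861, 1.06 and 1.10 CPM in flox/flox against 5.55, 1.26, 1.87 and 2.29 CPM in flox/WT libraries. Every flox/flox library lay below every flox/WT library of its population, although its proBpreB and immature estimates, -1.26 and -1.19, did not pass (adjusted p = 0.0732 and 0.0547).

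The difference between genotype effects was tested directly. From proBpreB to immature cells, 2 genes had a higher and 1 a lower genotype effect, against 4.72% and 6.14% of all genes. DESeq2 called 5, where 6.70% of all genes were called higher and 7.60% lower. Hist1h2bh had an effect of 0.42 in immature and -2.23 in proBpreB cells, a difference of 2.65 (SE 0.61, edgeR adjusted p = 0.00424). Hist2h2aa1 had 0.89 in immature and -0.65 in proBpreB cells, a difference of 1.54 (SE 0.40, adjusted p = 0.016). For Hist1h1b the effects were -1.31 in immature and -0.24 in proBpreB cells, a difference of -1.07 (SE 0.33, adjusted p = 0.0323), with an adjusted p = 0.0618 when the mouse was a block and 0.0543 to 0.0763 without any 1 of 9 libraries. These were immature flox/flox replicates 1, 3 and 4, immature flox/WT replicate 1, proBpreB flox/flox replicates 1 and 4 and proBpreB flox/WT replicates 1, 2 and 4.

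From immature to mature cells, 4 genes had a higher and 1 a lower genotype effect, against 5.51% and 2.23% of all genes. DESeq2 called 8, where 6.54% of all genes were called higher and 2.86% lower. The H2A gene Hist1h2ak had an effect of 1.11 in mature and -2.69 in immature cells (difference 3.80, SE 0.89, edgeR adjusted p = 0.00921). Hist1h2ae had 0.14 in mature and -1.61 in immature cells (difference 1.75, SE 0.44, adjusted p = 0.0144). These calls, and the first 2 above, held in every alternative that tested the gene. The differences of Hist1h2ad (1.92, adjusted p = 0.0419), Hist1h1b (1.15, adjusted p = 0.0401) and Hist1h4m (-1.22, adjusted p = 0.036) did not. With the mouse as a block, Hist1h2ad was at an adjusted p = 0.0814 and Hist1h1b at 0.0881. The call of Hist1h2ad was lost without any 1 of mature flox/flox replicates 1, 2 and 3, mature flox/WT replicates 1, 3 and 4, immature flox/flox replicates 1, 3 and 4 and immature flox/WT replicates 1 and 4 (adjusted p = 0.0641 to 0.0857). That of Hist1h1b was lost without any 1 of mature flox/flox replicates 1 and 3, mature flox/WT replicates 1, 3 and 4, immature flox/flox replicates 1, 3 and 4 and immature flox/WT replicates 1 and 4 (adjusted p = 0.0504 to 0.166). That of Hist1h4m was lost without any 1 of mature flox/flox replicates 2, 3 and 4, mature flox/WT replicate 1, immature flox/flox replicates 2 and 4 and immature flox/WT replicates 2 and 3 (adjusted p = 0.0506 to 0.0982). Between proBpreB and mature cells 0 of the 61 differences passed in edgeR and 0 in DESeq2, against 2.27% of all genes called higher and 0.786% lower in edgeR, and 3.50% and 1.17% in DESeq2. There, 4 had an unadjusted p under 0.05, and the lowest edgeR adjusted p was 0.172.

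The head-to-head pairs of H2A and H2B genes let 2 classes be compared at the same place in the genome. In the immature genotype comparison the H2A estimate was below that of its H2B partner in 10 of 11 pairs, with 8 H2A and 1 H2B genes called. Hist1h2ad, for example, was at -1.92 and Hist1h2bf at -0.41, and Hist1h2ak was at -2.69 and Hist1h2bn at 0.23. In proBpreB cells the H2A estimate was the lower in 3 of 11 pairs, with 0 H2A and 1 H2B genes called, and for mature cells in 1 of 11, with 1 H2A and 2 H2B genes called. Hist1h2bq and Hist1h2br, whose counts were equal in all 24 libraries, are counted once among these H2B calls but partner 2 of the H2A genes. Whether H2A and H2B differ was not tested. Among H2A and H2B genes in immature cells, those with the octamer in the promoter had 5 of 11 called lower (median -1.37) and those without it 7 of 19 (median -1.06). In proBpreB cells the counts were 0 of 11 (median -0.73) and 3 of 19 (median -0.65), and in mature cells 1 of 11 (median -0.09) and 2 of 19 (median -0.12). For comparison, edgeR called 10.5% of all genes lower with immature libraries, 2.75% with proBpreB and 6.62% with mature ones. Both mature octamer counts, and the 1 H2A call among the 11 mature pairs, lie near this last share. The 1 H2B call among the 11 immature pairs lies near 10.5%.

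Genes with an annotated stem-loop had 10 of 41 called lower in proBpreB cells (median -0.78), 13 of 41 in immature (median -0.69) and 10 of 41 in mature cells (median -0.48). Without an annotated stem-loop, the counts were 0 of 20 (median -0.58), 4 of 20 (median -1.15) and 1 of 20 (median -0.62). Of 9 members reported to give polyadenylated transcripts in differentiated cells, among them Hist1h1c, Hist1h2bc, Hist2h2be and Hist3h2a, 1, 0 and 1 were called lower. Their medians, in the same order of populations, were -0.48, -0.15 and -0.31. The share of all tested genes called lower was 2.75% for proBpreB, 10.5% for immature and 6.62% for mature cells. With 1 call each, the mature counts of the genes without a stem-loop and of these 9 lie near that share. Differences between these sets, and between genes with and without the octamer, were not tested.

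Between stages, the 5 comparisons share groups, so their values are given side by side. In flox/WT mice, immature against proBpreB cells, 29 of 61 histone genes fell and 0 rose, against 25.4% of all genes called lower and 24.0% called higher (median -0.93). In flox/flox mice 33 fell and 2 rose, against 27.2% and 28.7% of all genes (median -1.13). For mature against immature cells, 26 fell and 1 rose in flox/WT mice (17.1% and 15.6% of all genes, median -0.68), and 14 fell and 0 rose in flox/flox mice (13.6% and 12.9%, median -0.64). Mature against proBpreB cells of flox/WT mice, the widest step, gave 49 lower and 0 higher, against 29.6% and 29.2% of all genes, with a median of -1.72. Markers of other cells changed across the same step. For immature against proBpreB cells, 7 of 13 erythroid and 9 of 11 neutrophil and monocyte markers rose in flox/WT mice, and 10 of 13 and 10 of 11 in flox/flox mice. Natural killer cell markers fell in 6 of 6 and plasmacytoid dendritic cell markers in 4 of 6 in each genotype. In flox/flox mice Hba-a1 averaged 5343 CPM in immature against 873 CPM in proBpreB libraries, and S100a8 averaged 2847 CPM in immature against 801 CPM in proBpreB libraries. Siglech averaged 11.1 CPM in immature against 363 CPM in proBpreB libraries, and Klrd1 averaged 1.33 CPM in immature against 35.2 CPM in proBpreB libraries. From immature to mature cells at most 4 of 11 neutrophil and monocyte, 1 of 13 erythroid and 3 of 6 natural killer cell markers rose in either genotype. Their part in the histone changes was not tested. In each comparison the median of all genes was at most 0.02 from 0.

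**Figure D4:**
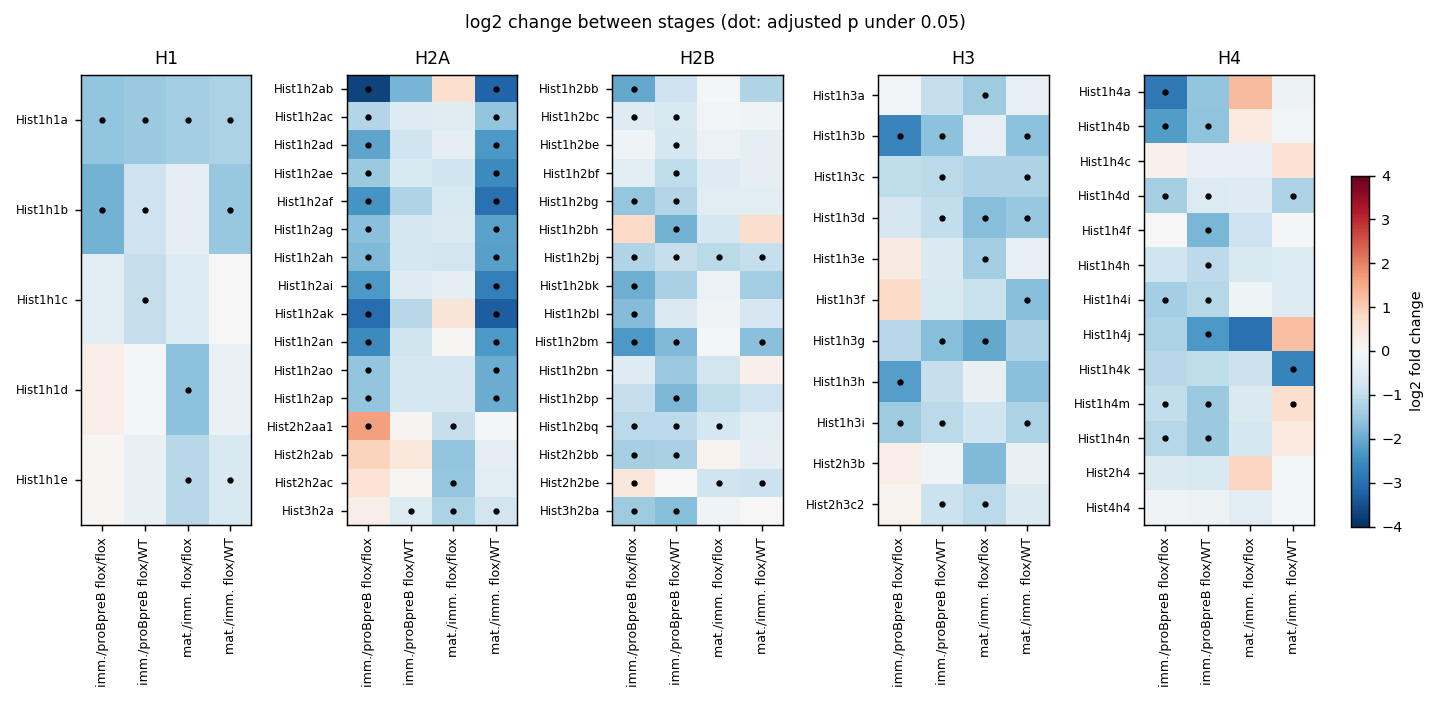
Log2 fold change (colour) of the 61 tested histone genes, a row per gene and a panel per class, for immature against proBpreB and mature against immature cells, flox/flox to the left of flox/WT, with dots for an edgeR adjusted p under 0.05. In H2A the dots of flox/flox lie mostly at the first step (12 of 16 lower) and those of flox/WT at the second (13 of 16 lower).

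The calls of the classes lay at different steps, and differences between classes were not tested. H2A was called mainly at the immature to mature step in flox/WT mice, where 13 of 16 tested genes fell (median -2.15) after 1 of 16 had fallen at the proBpreB to immature step (median -0.68). In flox/flox mice the counts were 3 of 16 (median -0.66) at the later and 12 of 16 at the earlier step (median -1.63), with Hist2h2aa1 called higher at the earlier. Hist1h2ao measured 642, 717, 433 and 458 CPM in mature flox/WT libraries, against 3449.9, 1295, 1578 and 2609 CPM in immature flox/WT libraries (log2 change -1.99, SE 0.34, edgeR adjusted p = 0.000108). Hist1h2ae measured 12.2, 22.8, 14.4 and 12.1 CPM in mature flox/WT libraries, against 157, 55.6, 49.8 and 99.2 CPM in immature flox/WT libraries (log2 change -2.56, SE 0.32, edgeR adjusted p = 1.14e-06). Neither gene's groups overlapped. At the earlier step in flox/WT mice, Hist1h2ao was at -0.71 (adjusted p = 0.0801), and in flox/flox mice at -1.59 (adjusted p = 0.000441).

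H2B and H4 were called mainly at the first step in flox/WT mice, with 11 of 16 and 8 of 13 genes lower, and 3 of 16 and 2 of 13 at the second. In flox/flox mice the counts were 10 of 16 and 6 of 13 at the first, and 3 of 16 and 0 of 13 at the second. Hist1h2bh measured 2.15, 1.40, 4.29 and 3.52 CPM in immature flox/WT libraries, against 7.54, 13.9, 15.8 and 5.66 CPM in proBpreB flox/WT libraries (log2 change -1.89, SE 0.42, edgeR adjusted p = 0.000451). Every immature value lay below every proBpreB value. In flox/WT mice at that step, the H2B genes Hist1h2bp and Hist1h2bm fell by 1.81 and 1.78 (edgeR adjusted p = 0.00708 and 0.00139). The H3 genes Hist1h3g, Hist1h3b and Hist1h3i fell by 1.71, 1.63 and 1.09 (edgeR adjusted p = 0.00331, 0.00976 and 0.00544). The H4 genes Hist1h4j, Hist1h4f and Hist1h4b fell by 2.28, 1.84 and 1.62 (edgeR adjusted p = 0.0331, 0.0422 and 0.0178). These 3 calls were lost in some alternatives, for Hist1h4j without any 1 of immature flox/WT replicates 1, 3 and 4 and proBpreB flox/WT replicates 3 and 4 (adjusted p = 0.0503 to 0.106), for Hist1h4f without any 1 of immature flox/WT replicates 1, 2 and 3 and proBpreB flox/WT replicates 1, 3 and 4 (adjusted p = 0.051 to 0.12) and for Hist1h4b without any 1 of immature flox/WT replicate 2 and proBpreB flox/WT replicate 3 (adjusted p = 0.0522 to 0.0622). Hist2h2be at 0.02 and Hist1h4c at -0.33 did not pass (adjusted p = 0.933 and 0.295). In H3 at the second step, 5 of 11 genes fell in each genotype, and Hist1h3d fell by 1.501 in flox/WT and 1.71 in flox/flox mice (edgeR adjusted p = 0.000654 and 0.000669).

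Of 5 tested H1 genes, 3 fell at each step in flox/WT mice, and in flox/flox mice 2 fell at the first and 3 at the second. Hist1h1a measured 3.79, 2.79, 2.44 and 5.83 CPM in immature flox/WT libraries, against 9.02, 8.78, 11.7 and 12.7 CPM in proBpreB flox/WT libraries (log2 change -1.498, SE 0.29, edgeR adjusted p = 8.62e-05). In mature flox/WT libraries it measured 1.21, 1.89, 1.87 and 1.24 CPM, below every immature library (log2 change -1.27, adjusted p = 0.00311). Hist1h1b fell by 0.83 and then 1.52 in flox/WT mice, and by 1.91 at the first step in flox/flox mice (adjusted p = 0.00315, 1.51e-05 and 1.45e-07). Hist1h1e, the most abundant H1 gene, was called at the second step and not at the first, and fell by 0.61 in flox/WT and 1.11 in flox/flox mice (adjusted p = 0.00819 and 2.00e-05). Without immature flox/WT replicate 1, the adjusted p of Hist1h1e in flox/WT mice was 0.0794. From proBpreB to mature cells of flox/WT mice, the largest changes by class were -2.77 for Hist1h1a, -5.06 for Hist1h2ab, -3.44 for Hist1h2bm, -3.28 for Hist1h3b and -3.69 for Hist1h4k.

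The 8 genes of the Hist2 cluster on chromosome 3 had medians nearer to 0 in immature against proBpreB cells. Their median at that step was -0.05 in flox/WT and 0.36 in flox/flox mice, against -0.999 and -1.30 for the tested Hist1 genes on chromosome 13. The difference between clusters was not tested. Hist2h2aa1 measured 176, 328, 186 and 266 CPM in immature flox/flox libraries, against 77.2, 99.1, 61.6 and 65.8 CPM in proBpreB flox/flox libraries. No immature library was as low as any proBpreB library (log2 change 1.65, SE 0.29, edgeR adjusted p = 5.61e-05), and the rise held in every alternative. Its values in flox/WT mice were 184, 97.3, 95.1 and 139.9 CPM in immature and 91.2, 107, 106 and 174 CPM in proBpreB libraries, which overlapped. Hist2h2be, an H2B gene of the same cluster, was called higher in the same comparison at 0.47 (adjusted p = 0.0436), a call lost in 10 of 14 alternatives. Hist1h4m was the 1 gene called higher from immature to mature cells, at 0.63 in flox/WT mice (adjusted p = 0.0465), and this call was also lost in 10 of 14 alternatives.

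Of the stage calls, 18 of 29, 27 of 35, 17 of 27, 8 of 14 and 45 of 49 held in every alternative that tested the gene. The order is immature against proBpreB and then mature against immature cells, each in flox/WT and flox/flox mice, and last mature against proBpreB cells. Leaving out any 1 library lost at most 10, 7, 7, 5 and 3 calls, in the same order of comparisons. The count of called genes moved by over 1.5 times in 2 of them, to 19 of 61 without immature flox/WT replicate 3 at the first step in flox/WT mice, and to 9 of 61 without immature flox/flox replicate 2 at the second step in flox/flox mice. With the mouse as a block, calls were lost for Hist1h4d and Hist2h2bb (adjusted p = 0.0916 and 0.051) and, in flox/flox mice, Hist1h2ai and Hist2h2bb (0.072 and 0.0791) at the first step. At the second they were lost for Hist1h2af, Hist1h3f, Hist1h3c and Hist1h3b (0.0537, 0.0521, 0.0831 and 0.0706) and, in flox/flox mice, Hist1h2bj (0.0757), and from proBpreB to mature cells for Hist1h4f (0.0852).

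Genes that make and handle histone mRNA, 27 in all and including Slbp, the U7 snRNP parts and cyclin E, were described in the same way. In proBpreB cells 0 rose and 1 fell (median 0.01), in immature cells 0 rose and 8 fell (median -0.19) and in mature cells 2 rose and 1 fell (median -0.08). Of all genes, 3.38% were called higher and 2.75% lower in proBpreB, 10.2% and 10.5% in immature and 9.69% and 6.62% in mature cells, so that the proBpreB and mature counts lie near the share of all genes. Mif4gd, which encodes an SLBP-interacting protein, measured 19.2, 18.4, 16.8 and 16.6 CPM in flox/flox against 32.4, 31.7, 32.5 and 41.8 CPM in flox/WT proBpreB libraries (log2 change -0.96, adjusted p = 2.18e-06). It also fell in immature and mature cells, by 0.72 and 0.77 (adjusted p = 2.84e-05 and 1.48e-05), with every flox/flox value below every flox/WT value in each population. Slbp measured 190.3, 145, 173 and 175 CPM in flox/flox against 301, 248, 251 and 244 CPM in flox/WT immature libraries (log2 change -0.61, adjusted p = 0.000261). In proBpreB cells it was at 0.01 (adjusted p = 0.986) and in mature cells it rose by 0.36 (adjusted p = 0.0339). The cyclin E genes Ccne1 and Ccne2, which drive entry into S phase, fell by 1.53 and 1.02 in immature cells (adjusted p = 7.93e-09 and 4.64e-05).

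Of 21 histone chaperones, which carry histones to DNA, 2 rose and 1 fell in proBpreB cells, 0 rose and 5 fell in immature cells, and 3 rose and 1 fell in mature cells, against the same shares of all genes. In mature cells these counts lie near those shares. Asf1b, which delivers H3 and H4, fell by 1.72 and Chaf1a, of the replication-coupled assembly factor, by 1.55 in immature cells (adjusted p = 4.46e-07 and 0.000266). The related Asf1a fell by 0.73 in proBpreB cells (adjusted p = 0.00021). Hjurp, the chaperone of the centromeric H3, rose by 1.11 in mature cells (adjusted p = 6.09e-09).

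Histone variants outside these clusters, most of them replication-independent, included 10 tested genes, with 1 higher in proBpreB, 3 higher and 4 lower in immature and 1 higher in mature cells. Of all genes, 3.38% were called higher in proBpreB and 9.69% in mature cells, and 10.2% were called higher and 10.5% lower in immature cells. The mature count lies near the share of all genes. H1f0, a linker histone of resting and differentiated cells, was the gene called higher in all 3. It measured 30.1, 27.1, 31.0 and 33.3 CPM in flox/flox against 11.6, 11.7, 21.0 and 14.9 CPM in flox/WT immature libraries, with log2 changes of 1.03 for proBpreB, 1.02 for immature and 1.42 for mature cells (adjusted p = 0.00126, 0.00112 and 9.91e-05). Its groups did not overlap in any of the 3 populations. In immature cells H2afx fell by 1.74, while H3f3a and H3f3b, which encode the replication-independent H3, rose by 0.65 and 0.49 (adjusted p = 1.22e-06, 5.13e-05 and 0.00631).

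Genes of DNA replication and mitosis gave other counts than the histone genes in proBpreB and mature cells, a difference not tested. In proBpreB cells 1 of 31 DNA replication genes rose and 0 fell (median 0.10), and 0 of 23 mitosis genes passed (median 0.01), beside 10 histone genes lower. In immature cells 27 of 31 (median -1.05) and 23 of 23 (median -1.79) fell, among them Mcm10, a replication initiation factor, by 2.09 and Mki67 by 2.86 (adjusted p = 2.42e-06 and 0.000304). In mature cells 13 of 31 (median 0.34) and 16 of 23 (median 0.78) rose, beside 11 histone genes lower and 0 higher. Mcm10 measured 15.3, 11.6, 8.45 and 7.46 CPM in flox/flox against 7.36, 4.53, 3.36 and 3.24 CPM in flox/WT mature libraries (log2 change 1.22, adjusted p = 0.00601). Between stages of flox/WT mice, mature against proBpreB cells, 30 of 31 DNA replication and 23 of 23 mitosis genes fell (medians -1.95 and -3.65), beside 49 of 61 histone genes (median -1.72).

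**Figure D5:**
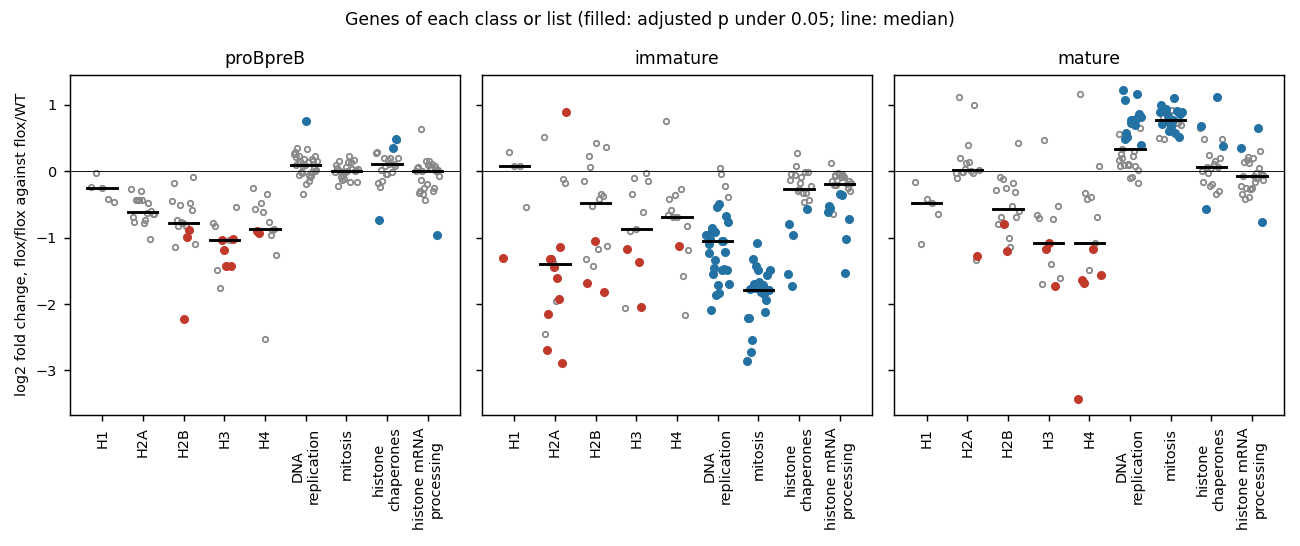
Log2 fold change, flox/flox against flox/WT (vertical axis), of each gene (points) of the histone classes and of the related lists in the 3 populations, filled where the edgeR adjusted p was under 0.05 (red for histone genes, blue for the lists), with the median as a line. In mature cells the medians of H3 and H4 lie at -1.08 while those of DNA replication and mitosis genes lie at 0.34 and 0.78.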

How the data were processed

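RNA was measured in 24 libraries, 4 in each of 6 groups. Per the labels' protocols, cells were sorted into lysis buffer, RNA was extracted with the RNeasy Plus Micro kit and the SMARTer Universal Low Input RNA Kit gave the libraries. The submitters' processing notes name CASAVA, FastQC, Trim Galore, HISAT2, featureCounts, DESeq2 and the build mm10. The authors deposited raw whole-number counts per gene, while the sources used here do not give strand use, annotation or the treatment of reads that match several genes. Columns were matched to samples by their running number.

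Here, one edgeR (4.0.16, R 4.3.3) quasi-likelihood model was fitted to all 24 libraries and 12850 genes kept by filterByExpr, with TMM scaling, 18 residual degrees of freedom and Benjamini-Hochberg adjustment within each of 11 comparisons, called at 0.05. Libraries of 1 group came from different mice, and the 3 counts taken as a detection floor cover counting error only. The fit was tested on simulated data. The alternatives were RLE scaling, DESeq2 (1.42.0), a fit of only the groups compared, the replicate block, no filter, at least 10 CPM in 4 libraries, each library left out, every symbol counted and, chosen after seeing the data, Hist1h2ao and Hist1h2ap counted once. The members and lists were chosen with earlier results of these data known. Named were the 3 most abundant genes of each class, up to 3 called genes per class and direction with the largest change, calls against the main direction, the most abundant gene of each class without a call, and up to 8 differences. Other called genes of the genotype comparisons, and Hist4h4, were named after their values were seen. The main fit has no block, so its stage comparisons do not account for the shared mouse. The 3 populations of a mouse carry the same animal label, so in the replicate block alternative the mouse is the block of the stage comparisons. Of 24 pairs of libraries of 1 mouse, 16 had correlated deviations over 0.1 (r from -0.284 to 0.372, 5000 genes). Tables and figures were made with Python 3.11.15.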

Additional observations from a re-analysis of the deposited data

Results flagged for a closer look

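In 8 of 126 groups of 4 libraries tested, 1 library stood far from the others, where chance alone gives about 1 in 20. In mature flox/flox libraries, replicate 1 had an H1 sum of 88.6 CPM against 59.3 to 63.6 CPM in the others. Replicate 2 of that group had 884 CPM of Hist1h2ao against 427 to 479 CPM, and 884 CPM of its near-copy Hist1h2ap against 424 to 478 CPM. Replicate 4 had 5.75 CPM of Hist1h4c against 8.39 to 8.77 CPM. In immature flox/WT libraries, replicate 1 had an H2B sum of 170 CPM against 115 to 120.2 CPM, and 36.2 CPM of Hist1h1c against 22.2 to 24.5 CPM. In immature flox/flox libraries, replicate 2 had 33.1 CPM of Hist1h2bc against 18.4 to 19.7 CPM. In proBpreB flox/WT libraries, replicate 1 had 663 CPM of Hist1h2ad, the lowest, against 944 to 1001 CPM.

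The genotype effect differed between populations in 8 tests of single genes, by edgeR's quasi-likelihood test of the difference. Immature minus proBpreB, the difference was 2.65 for Hist1h2bh (SE 0.61, adjusted p = 0.00424), 1.54 for Hist2h2aa1 (SE 0.40, adjusted p = 0.016) and -1.07 for Hist1h1b (SE 0.33, adjusted p = 0.0323) on the log2 scale. Mature minus immature, it was 3.80 for Hist1h2ak (SE 0.89, adjusted p = 0.00921), 1.75 for Hist1h2ae (SE 0.44, adjusted p = 0.0144), 1.92 for Hist1h2ad (SE 0.56, adjusted p = 0.0419), 1.15 for Hist1h1b (SE 0.35, adjusted p = 0.0401) and -1.22 for Hist1h4m (SE 0.36, adjusted p = 0.036). The calls of Hist1h2bh, Hist2h2aa1, Hist1h2ak and Hist1h2ae held in every alternative that tested the gene.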

How the results depend on the processing

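Of 201 calls of single histone genes, none changed direction over 2821 results, a result being 1 called gene under 1 alternative. The call was lost in 347 of these results, and 133 calls were lost in none. In proBpreB cells the 10 genotype calls became 6 with the filter of 10 CPM and 21 with only the groups compared, and in mature cells the 11 became 6 with that filter. The filter of 10 CPM left 38 of the 61 histone genes to test, so called genes that it removed are not counted there. The 3 differences of immature minus proBpreB became 5 with only the groups compared and 5 with DESeq2. The 5 differences of mature minus immature became 3 with no filter, 3 with only the groups compared and 8 with DESeq2. The cause of the changes under the other settings was not tested. Leaving out 1 library gave 3 to 14, 10 to 22 and 6 to 10 genotype calls in proBpreB, immature and mature cells. It gave 19 to 34 and 29 to 33 calls at the first step in flox/WT and flox/flox mice, 20 to 28 and 9 to 21 at the second, and 47 to 50 from proBpreB to mature cells. For the differences it gave 2 to 5, 2 to 7 and 0 to 0. The majority direction of the differences turned without immature flox/flox replicate 2 (2 higher, 3 lower of 5) for immature minus proBpreB, and without immature flox/WT replicate 1 (2 higher, 3 lower of 5) for mature minus immature.

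Scaled by the library total, mean class sums were 196 CPM for H1 in proBpreB flox/flox, 88.9 CPM for H1 in mature flox/WT and 175 CPM for H2B in proBpreB flox/flox libraries. With every symbol counted, H2B was 176 CPM in proBpreB flox/flox and 107 CPM in mature flox/WT, and H3 was 65.1, 53.0 and 23.1 CPM in proBpreB, immature and mature flox/flox and 41.3 CPM in mature flox/WT libraries, because each copy then counts by itself. The replicate block moved no count of calls by over 1.5 times. Same-numbered libraries of different mice had correlated deviations over 0.1 in 5 of 12 pairs (r from -0.302 to 0.544). The number marks different mice in the 2 genotypes, so the main fit does not pair by it. Whether same-numbered libraries share anything else was not tested. With the number as a block the genotype calls of Hist1h3a, Hist1h2ab, Hist2h2aa1, Hist1h2bj and Hist4h4 were lost. With 4 mice a group and near-identical copies, reads of single H2A and H4 genes may be shared, and low genes such as Hist1h4j rest on few counts.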
